A study of Mus musculus with 12 samples.

Results

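The wild-type cultures of this study are 3 cultures of cells labelled cardiac stem cells, from mice of the strain C57BL/6, sequenced as 6 of the 12 libraries of the series (2 libraries per culture). They were chosen by their labels alone, and the other 3 cultures of the series, labelled c-kitCre, enter no value given here. All cells were grown on gelatin in medium with 10% serum at 37 degrees C, in 21% oxygen and 5% carbon dioxide. Total RNA was depleted of ribosomal RNA and sequenced as paired 100 bp reads. The labels give no agent, age, sex or passage for these cultures, and they do not say whether the cultures came from separate mice or how the cells were isolated from the heart. The description therefore covers cells as they were after growth in serum on coated dishes, and the spread given is the spread between these cultures.

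Cardiac stem or progenitor cells are small non-muscle cells of the heart that have been isolated by surface antigens, among them the receptor tyrosine kinase Kit and the antigen Sca-1, which Ly6a encodes. Such isolates have been compared with fibroblast-like stromal cells, which make matrix, with pericytes, endothelial cells and mast cells, and with cardiomyocytes, whose sarcomere genes mark differentiated heart muscle. Cells grown in culture as a rule depend on glycolysis, and the transcription factor Hif1a and its partner Arnt raise glycolytic enzymes and the prolyl hydroxylase Egln3 when oxygen is short.

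The deposited table gives 1 value per gene and culture, merged by the authors from the 2 libraries. Summed over 34174 genes, the deposited raw values came to 35043499, 32392712 and 34854988 in cultures 1, 2 and 3. Levels are given as scaled reads, the raw value multiplied by the relative scale factor contained in the authors' normalized columns (1.0886, 0.9974 and 0.9211). Where values follow each other they are those of cultures 1, 2 and 3, in that order. Levels of different genes are compared only per kb of exon. A gene is called on with at least 20 scaled reads per kb in each of the 3 cultures. It is called off when it is below 4.92 scaled reads, the floor used here, in each of them. That floor is the median of 45 values read from the normalized columns, which spread over 1.56 log2 units. Of 20466 protein-coding genes, 10625 (51.9%) were on, 5710 (27.9%) were off and 4131 lay in between.

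Culture 1 stood apart, and this comes before any gene, since it sets the spread over the cultures for most genes. Over the 11360 protein-coding genes whose mean reached 50 scaled reads, the median absolute log2 difference was 0.06 between cultures 2 and 3. It was 0.38 between cultures 1 and 2 and 0.40 between cultures 1 and 3. Cultures 2 and 3 were the closest pair for 9578 genes (84.3%). Genes differing by at least 2-fold numbered 1204 between cultures 1 and 2, 1330 between cultures 1 and 3, and 8 between cultures 2 and 3. The median coefficient of variation was 16.2% over the 3 cultures and 3.12% over cultures 2 and 3 alone. Cultures 2 and 3 differed by more than the counting error computed here. The robust SD of their log2 difference was 1.62 times that error at a mean of 50 to 100 scaled reads and 4.29 times at 10000 or more. That counting error treats each value as the mean of 2 libraries, which the sources used here do not state. Summed libraries would give lower ratios. A spread over counting error cannot tell 2 cultures from 2 libraries of 1 culture. Cultures 2 and 3 are kept as 2 cultures because the labels number them so.

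**Figure D1:**
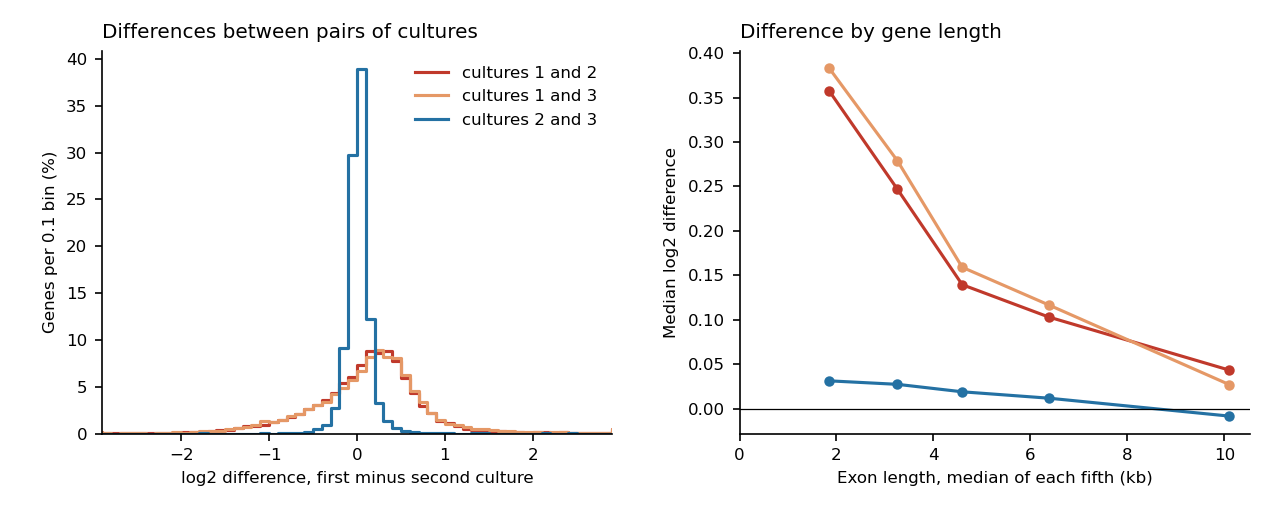
Left, the share of 11360 protein-coding genes per bin of log2 difference, for each pair of cultures, with differences beyond the axis placed in the end bins. Right, the median log2 difference in 5 equal bins of genes by exon length in kb. The pair of cultures 2 and 3 is narrow around 0 at every length, whereas both pairs with culture 1 are broad, and their medians lie near 0.37 for the shortest bin and near 0.04 for the longest.

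The difference of culture 1 moved with gene length. The median log2 difference of culture 1 from the mean of cultures 2 and 3 was 0.37 in the bin, of 5 equal ones, with the shortest exons (median 1.85 kb). It fell to 0.26, 0.15 and 0.11 in the next bins and to 0.04 in the bin with the longest exons (median 10.1 kb). Between cultures 2 and 3 the same medians ran from 0.03 to -0.01. By GC content of the longest transcript the median difference of culture 1 was between 0.18 and 0.22 in the lower 4 of 5 bins and 0.06 in the bin with the most GC. The part of exon length and GC content in the differences of single genes was not tested. Small structured RNAs took a slightly larger share of the summed scaled reads in culture 1: Rn7sk, Rpph1, Rmrp and Rn7s6 together made up 3.05%, 2.72% and 2.74%.

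Kit, the receptor tyrosine kinase named in the series, was off in the wild-type cultures. The gene (ENSMUSG00000005672, mm10 chromosome 5, 75574916 to 75656722) had 3.77, 1.73 and 1.30 scaled reads, and 17576 was its rank by level per kb among 20466 protein-coding genes. At these values no difference in Kit between the cultures was detectable. Its ligand gene Kitl was on with 4041, 2305 and 2370 scaled reads. In bulk RNA, few cells carrying a transcript and little transcript per cell cannot be told apart, for Kit and for every gene below.

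Among 28 surface antigens and factors of stem and progenitor cells, 16 were on (57.1%, against 51.9% of all protein-coding genes) and 5 were off. Ly6a had 3690, 3255 and 3106 scaled reads, culture 1 lying 1.13-fold above culture 2, and ranked 398th by level per kb. Cd44, the hyaluronan receptor, was the list's highest gene per kb with 3486 ± 1509 scaled reads per kb (SD, n = 3), and its 35428 scaled reads in culture 1 stood against 17839 and 17601. Ly6e, Ly6c1, Pdpn (podoplanin), Eng (endoglin, a TGF-beta co-receptor), Abcb1b and Abcg2 (efflux pumps) were on too. Thy1 had 3.92, 5.23 and 2.98 scaled reads and Cd34 5.56, 15.9 and 11.8, so both lay at the floor or little above it. Prom1, Sox2, Slamf1 and Dppa3 were off. Of the pluripotency factors, Myc (4044, 6443 and 6327 scaled reads) and Klf4 (1378, 6251 and 6734) were on, and Pou5f1 was at 12.1, 11.2 and 11.5 scaled reads. Nanog was also on, at a low level of 56.8, 103 and 84.4 scaled reads, which is uncertain because the gene has pseudogene copies that could share its reads.

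Of 26 cardiac transcription factor genes 11 were on (42.3%) and 7 were off. Over all protein-coding genes 51.9% were on and 27.9% off. Gata4, a zinc finger factor of heart and epicardium, was on and even across the cultures, with 932, 874 and 897 scaled reads and a level of 231 ± 7.39 scaled reads per kb (SD, n = 3). Mef2a, Mef2d, Srf, Meis1, Meis2, Tbx18, Zfpm1, Zfpm2, Foxc1 and Foxc2 were on as well. Hand1, Hand2, Gata5, Mesp1, Myocd, Hopx and Irx4 were off. Nkx2-5, an early cardiomyocyte factor, had 19.2, 5.98 and 8.74 scaled reads, Tbx5 had 5.19, 8.98 and 7.59, and Tbx20 had 4.04, 2.99 and 6.38. These genes were thus at or near the floor in all 3 cultures, with Nkx2-5 highest in culture 1.

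Genes of the sarcomere and of cardiomyocyte excitation were mostly off or low: 6 of 29 were on (20.7%, against 51.9% of all protein-coding genes). The 6 were Atp2a2 (a calcium pump present in many cell types), Tnnt2, Gja1 (connexin 43), Nppb, Tnnc1 and Des. Tnnt2, cardiac troponin T, had 4025, 1627 and 1693 scaled reads, which placed it at 316 ± 176 scaled reads per kb (SD, n = 3), culture 1 being the highest. Cardiac troponin I, Tnni3, had 5.01, 4.88 and 2.27 scaled reads and the myosin gene Myh6 had 2.67, 5.23 and 0.921, both about at the floor. Myh7, Myl2, Myl3, Myl7, Ckm and Ryr2 were off. Of 18 smooth muscle genes 9 were on (50%, near the 51.9% of all protein-coding genes). These were the widely used actin-binding genes Flna, Tpm1, Cald1, Cnn2, Vcl and Tpm2 together with Smtn, Mylk and Ptgis. The contractile markers Acta2 (38.4, 102 and 91.4 scaled reads), Tagln (27.5, 26.2 and 35.9) and Myh11 (17.0, 16.6 and 15.7) were low in every culture.

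Of 28 fibroblast and mesenchymal markers 18 were on (64.3%, against 51.9% of all protein-coding genes). Vim, the intermediate filament vimentin, had 174708, 100374 and 95716 scaled reads and ranked 16th of all protein-coding genes per kb. S100a4 ranked 21st. Fn1, Gsn, Ddr2 (a collagen receptor), Col3a1, Prrx1, Prrx2, Twist1, Twist2, Zeb1, Zeb2, Snai1, Snai2 and Cdh2 were on. Other genes often used for cardiac fibroblasts were off: Postn had 3.66, 1.74 and 2.44 scaled reads, and Tcf21, Lum and Fap were also under the floor in each culture. Pdgfra was on at 1189, 367 and 386 scaled reads, culture 1 standing 3.08-fold above the nearer of the others, and Dcn (103, 26.9 and 33.4) was in between. Pdgfrb, a pericyte and fibroblast receptor gene, was on with 1351, 2453 and 2477 scaled reads, but Rgs5, Abcc9, Cspg4 and Anpep were between the thresholds and Kcnj8, Vtn and Trpc6 were off. Of 15 pericyte markers 4 were on.

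**Figure D2:**
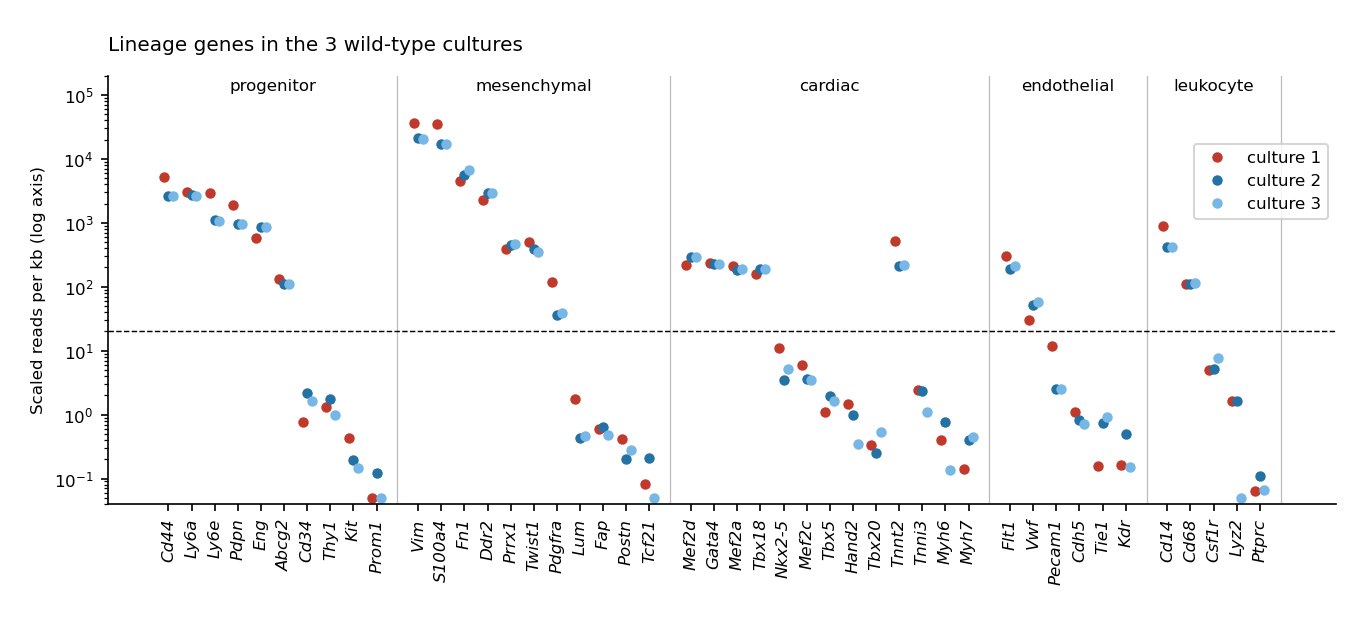
Level of lineage genes in the 3 wild-type cultures, in scaled reads per kb on a log axis, with 1 point per culture and values under 0.05 drawn at 0.05. The dashed line is the level of 20 that counts as on. The mesenchymal genes from Vim to Prrx1 and the surface antigens from Cd44 to Abcg2 lie above it in every culture, and Kit, Prom1, Postn, Tcf21, Kdr and Ptprc lie far below.

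Few markers of other heart cell types were on, whereas 51.9% of all protein-coding genes were on and 27.9% off. Of 25 endothelial markers 12 were off, among them Cdh5, Kdr, Tie1, Erg and Emcn, and the 5 that were on were Eng, Flt1, Plvap, Vwf and Egfl7. The summed level of the endothelial list ran from 7201 to 7608 scaled reads over the cultures. Most of it came from Eng (2317, 3418 and 3520 scaled reads) and Flt1 (4011, 2570 and 2796), which moved in opposite directions in culture 1. Of the 6 members among the 11360 genes compared above, 1 was higher and 5 were lower in culture 1 than in both others, none by 2-fold. At lower levels, Pecam1 (72.8, 15.5 and 15.8 scaled reads) and Flt4 (17.2, 2.38 and 3.19) were higher in culture 1, and Tek (3.29, 6.25 and 7.89) was lower. Of 25 leukocyte markers 14 were off, Ptprc (CD45) at 1.15, 1.99 and 1.23 scaled reads among them. Cd14, Cd68 and Mrc1 were the 3 that were on, and the list summed to 2174, 1157 and 1181 scaled reads, of which Cd14 gave 1524, 717 and 729. The mast cell protease genes Cpa3, Mcpt4 and Tpsb2 and the receptor subunits Fcer1a and Ms4a2 were at 0 in all 3 cultures, while the factors Gata2 and Mitf, which other cells also use, were on. Of the surface antigens by which such cells have been isolated, the wild-type cultures thus had Ly6a on and Kit off.

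Msln (mesothelin), a gene of mesothelial cells, had 8809, 7394 and 7061 scaled reads and ranked 450th per kb, but Wt1 was at 14.7, 9.04 and 4.41, and Upk1b, Bnc1, Gpm6a and Aldh1a2 were off. With Tbx18 and Krt8, 3 of 21 epicardial and mesothelial markers were on (14.3%, against 51.9% of all protein-coding genes). When culture 1 was left out, 6 of these markers were on. Skeletal muscle regulators Myod1, Myf5, Myog and Pax7 were off, whereas Pax3 (773, 860 and 893 scaled reads), Six4 and Eya1, factors of mesoderm and neural crest, were on. Of 18 glial and neural crest markers only Ncam1 and Nes met the level for on. The mature adipocyte genes Adipoq and Plin1 and the bone genes Ibsp, Sp7 and Dlx5 were off. Runx2 (1099, 1177 and 1213 scaled reads) and Sox9 were on. Xist, the RNA of the inactive X chromosome, was on with 34203, 40666 and 43554 scaled reads, and Ddx3y on the Y chromosome was off. A second Y-linked gene, Kdm5d, had 128, 53.2 and 83.8 scaled reads, and Uty had 7.73, 19.3 and 19.1.

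Hox genes, which encode positional identity along the body axis, met the level for on in every culture only at the anterior end of clusters A and B. Of the 18 genes of paralogue groups 1 to 6 measured, 9 were on, Hoxa4 to Hoxa6 and Hoxb2 to Hoxb4 among them. Of the 21 genes of groups 7 to 13 none was on, where 51.9% of all protein-coding genes were. The posterior gene Hoxb13 came near, with 69.1, 33.5 and 44.2 scaled reads, or 31.3, 15.2 and 20.04 per kb. Only its lowest value lay under the level of 20 per kb. Hoxa6 was the highest per kb, with 241, 247 and 264 scaled reads, and Hoxb4 had 323, 365 and 342. Its neighbours Hoxb5 and Hoxb6 were off in all cultures. No gene of clusters C or D was on, Hoxc6 with 56.3, 21.8 and 30.0 scaled reads being their highest. Hoxd4, with 19.8, 4.15 and 4.41 scaled reads, had no exon length and so could not be called on. Of the anterior genes, Hoxa2 (384, 192 and 189 scaled reads) and Hoxa4 (51.5, 121 and 110) lay at least 2-fold from both others in culture 1, Hoxa2 not under every scaling. Hoxb2 had 214, 142 and 128 scaled reads and Hoxb3 120, 177 and 162.

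**Figure D3:**
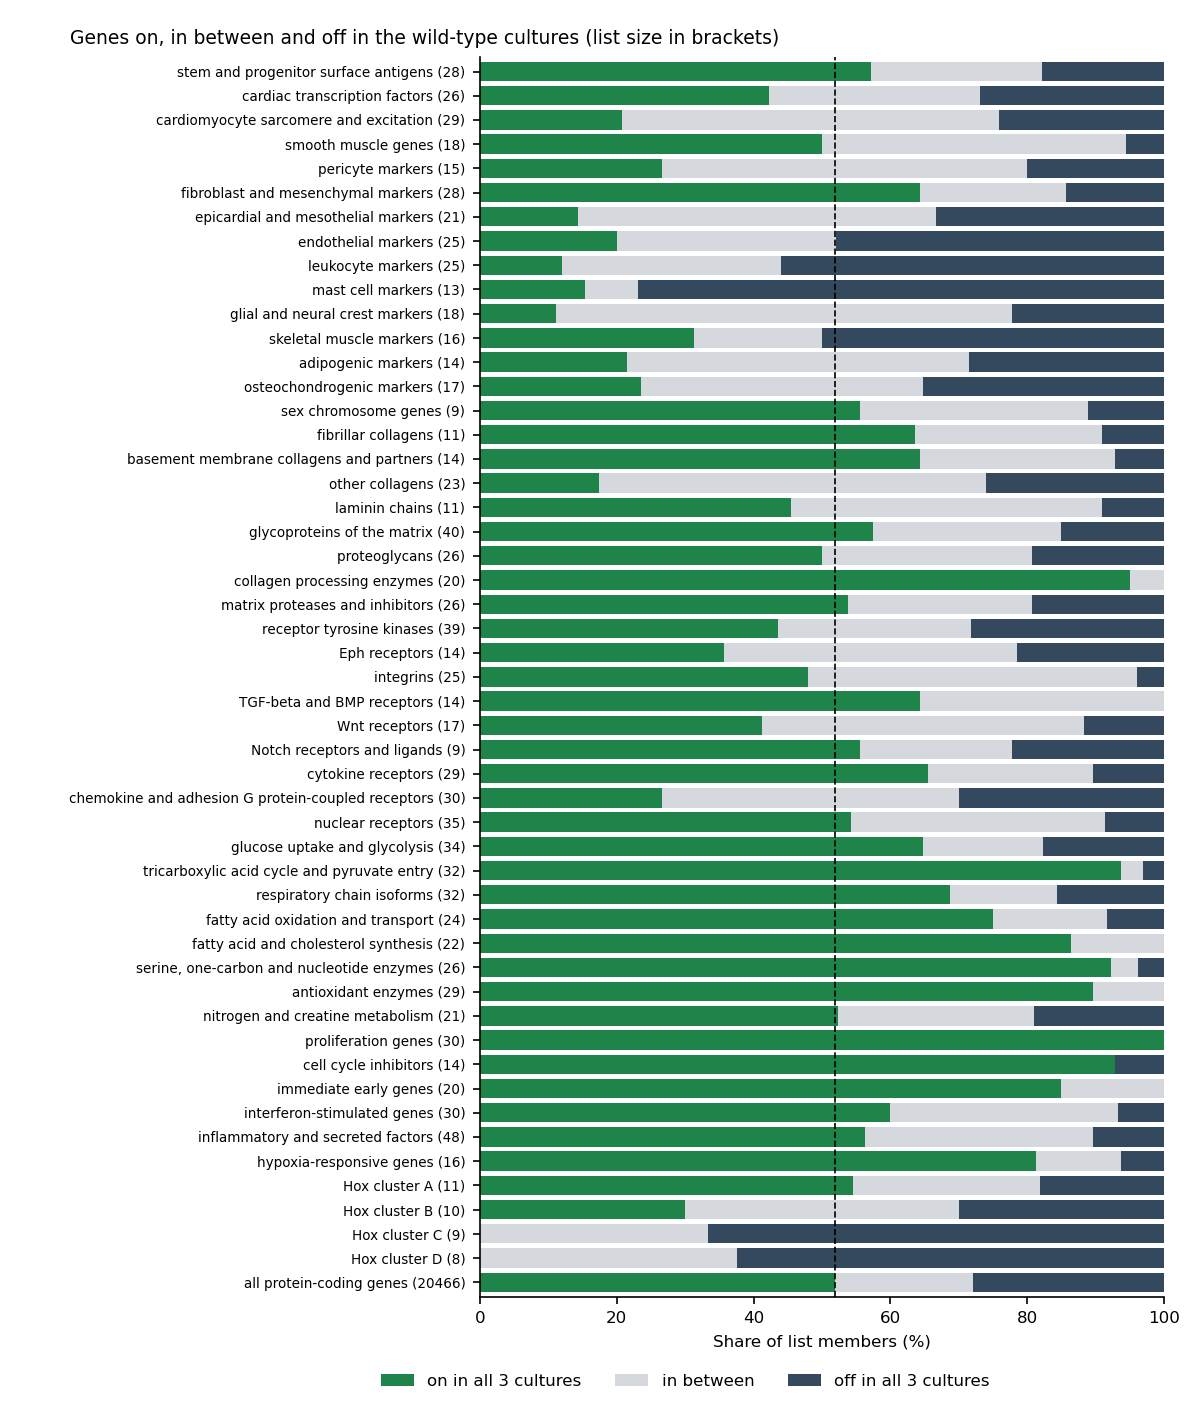
Share of the members of each gene list that were on, in between or off in the 3 wild-type cultures, in %. The dashed line marks the 51.9% of all protein-coding genes that were on, and the bottom bar gives all protein-coding genes. All 30 proliferation genes were on, while most mast cell and leukocyte markers were off, as were 12 of 25 endothelial markers, and no gene of Hox clusters C and D was on.

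Among the 20 highest named genes per kb 9 encoded ribosomal proteins. Lgals1, the lectin galectin-1, led the named genes with 188204, 143842 and 141871 scaled reads, followed per kb by Eef1a1, Rplp1, Actb and Rplp0. The first 22 ranks also held 2 predicted genes without a name. Spp1 (ENSMUSG00000029304, mm10 chromosome 5, 104435118 to 104441050), osteopontin, a secreted phosphoprotein of matrix and inflammation, ranked 7th with 155709, 39070 and 36850 scaled reads. Culture 1 was thus 3.99-fold above its nearest neighbour for the leading secreted matrix gene.

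The share of members on differed between the matrix lists, from 17.4% of other collagens to 95% of collagen processing enzymes, the other 6 lists lying between 45.5% and 64.3%, against 51.9% of all protein-coding genes. Of 11 fibrillar collagen genes 7 were on. Col3a1 led them with 26827, 24895 and 23716 scaled reads, close across cultures at 2562 ± 160 scaled reads per kb (SD, n = 3). Col1a1 had 2990, 9542 and 10118 scaled reads and Col5a1 had 7750, 17189 and 16239, culture 1 being the lowest in both. The partner chain Col1a2 did not follow, with 4144, 3502 and 3462 scaled reads.

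Basement membrane genes were on in 9 of 14 cases (64.3%, against 51.9% of all protein-coding genes). Among the laminin genes on were Lama5 (25892, 36755 and 37528 scaled reads), Lamb1 (30656, 18018 and 17901), Lamc1 and Lamb2. Lama1 was off, Lama2 had 8.84, 7.24 and 3.77 scaled reads and Lama4 had 14.1, 8.59 and 4.12, so that Lama5 was the one alpha chain gene at a high level. Col4a1 and Col4a2, the chains of the common collagen IV trimer, were on at 1555 and 899 scaled reads per kb. Nid1 was on and its paralogue Nid2 off. Hspg2, the proteoglycan perlecan, had 8399, 23021 and 24358 scaled reads, culture 1 lying 2.74-fold below the nearer other culture.

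Among other matrix genes, Col6a1 and Col6a2 were on, and Col6a3, the third chain of collagen VI, had 2114, 192 and 202 scaled reads. Culture 1 was thus 10.5-fold above both others for Col6a3 while its partner chains differed by less than 2-fold. Col12a1 went the other way with 67.2, 621 and 642 scaled reads, and so did the small proteoglycan Ogn (osteoglycin) with 68.8, 1068 and 954. Thbs1, thrombospondin 1, had 3682, 14231 and 13676 scaled reads. Elastin (Eln), Vtn, Smoc2 and Thbs4 were off. Collagen processing was the most complete matrix list, 19 of 20 members being on, led by the collagen chaperone Serpinh1 with 57390, 45027 and 42317 scaled reads.

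Of 39 receptor tyrosine kinase genes 17 were on (43.6%, against 51.9% of all protein-coding genes) and 11 off. Axl, a receptor for Gas6, was highest per kb with 32057, 23117 and 22896 scaled reads, and Ddr2, Ryk, Met, Pdgfrb and Ddr1 followed. Kit, Kdr, Ret, Tie1, Fgfr4 and Ror1 were among the 11 that were off, while Ror2 was on. Flt3 had 693, 1774 and 1578 scaled reads. Mertk, a relative of Axl, had 63.6, 8.13 and 11.5 scaled reads per kb and so passed the level for on in culture 1 alone.

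Of 25 integrin genes 12 were on (48%, near the 51.9% of all protein-coding genes), Itgb1, Itgb7 and Itgb5 leading per kb. Itga6, a laminin receptor chain, had 7860, 1335 and 1310 scaled reads, 5.89-fold above the nearer other culture in culture 1. Among cytokine receptors 19 of 29 were on, with Il6st (7317, 9130 and 8945 scaled reads), Tnfrsf1b (4144, 2590 and 2509) and the interferon receptor genes less than 2-fold apart between cultures. Chemokine receptor genes were mostly low: Cxcr4 was off, and Ackr3, the scavenger of the same ligand, Cxcl12, had 1022, 151 and 133 scaled reads. Cxcr2, a neutrophil chemokine receptor gene, was on with 645, 1399 and 1407 scaled reads. Of 35 nuclear receptors 19 were on (54.3%, also near the share of all genes), led by the glucocorticoid receptor Nr3c1 and the retinoic acid receptor Rarg. Esrrg, Rxrg and Pgr were off.

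Metabolic lists were on to a large extent. Of 32 genes of the tricarboxylic acid cycle and pyruvate entry 30 were on, of 26 serine, one-carbon and nucleotide enzymes 24, and of 29 antioxidant enzymes 26. Of 34 glycolysis genes 22 were on (64.7%, against 51.9% of all protein-coding genes), and the ubiquitous forms Pkm, Aldoa, Ldha, Tpi1 and Gapdh led per kb. Of the forms named for single tissues, Pklr, Slc2a4 and Pgk2 were off, but the muscle forms Eno3 (6005, 3893 and 3762 scaled reads), Pfkm (3641, 2417 and 2291) and Pgam2 (45.1, 33.3 and 29.6) were on. Phgdh, the first enzyme of serine synthesis, had 30856, 25936 and 25593 scaled reads and ranked 58th per kb, and Asns, Shmt2 and Psat1 were near it. These genes differed little between the cultures: of 25 members whose mean reached 50 scaled reads, 1 (Impdh1) lay 2-fold below both others in culture 1. Over all protein-coding genes at that level, 5.03% lay at least 2-fold above and 4.61% below both others in culture 1. The heart and muscle forms Cox8b, Ckm and Ckmt2 and the uncoupling protein genes Ucp1 and Ucp3 were off, whereas Cox6a2 (143, 180 and 168 scaled reads) and Slc25a4 (14588, 14286 and 14111), also heart and muscle forms, were on.

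All 30 proliferation genes were on, where 51.9% of all protein-coding genes were. Mki67 had 31636, 24622 and 23379 scaled reads and Ccnd1 33027, 25687 and 25136, and no member lay 2-fold above or below both others in any culture. Of 14 cell cycle inhibitor genes 13 were on, Cdkn2a highest per kb with 3223, 1638 and 1547 scaled reads, and Cdkn1c was off. Secreted factors were led per kb by Ccl2 (15719, 11267 and 10660 scaled reads), Igfbp4 and Csf1, whereas Il6, Tnf, Il1b and Bmp2 were off.

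The departure of culture 1 was counted gene by gene. A gene was called in a culture when its level lay at least 2-fold above both others, or at least 2-fold below both. With 1 culture against 2 there is no test, and the same count in cultures 2 and 3 is given as the background. Culture 1 was above in 571 of 11360 genes (5.03%) and below in 524 (4.61%). Culture 2 was above in 1 gene (0.0088%) and below in 0 (0%), and culture 3 was above in 1 gene (0.0088%) and below in 4 (0.0352%). The balance depended on the scaling. With cultures scaled to their summed raw values, 349 genes were above and 890 below, a share above of 28.2% against 52.1%, and with a median of ratios 469 and 644 (42.1%). The other scalings moved the median log2 difference of culture 1 over all tested genes from 0.18 to -0.06 and 0.08. All 524 genes below and 357 of the 571 above were called under each of the 3 scalings. Medians of lists are therefore given relative to the median of all tested genes, which the scaling does not move. Of the 571 genes above, 104 had a mean under 50 scaled reads in cultures 2 and 3 and so passed the filter through culture 1.

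The largest departures above included genes that were near silent in cultures 2 and 3. Plet1, a surface protein of epithelial progenitors (ENSMUSG00000032068, mm10 chromosome 9, 50494525 to 50505482), had 631, 1.73 and 2.26 scaled reads, so both other cultures were under the floor. Selp (P-selectin) had 1079, 29.7 and 35.4 scaled reads, Ifitm1 3901, 137 and 132, and Il33, an alarmin cytokine, 906, 23.6 and 34.2. Cxcl5 had 285, 4.76 and 7.71 scaled reads and Nos2, the inducible nitric oxide synthase, 208, 10.8 and 7.82. Cd300lb, Fyb, Igfbp3, Adgrg3 and Dppa4 were also among the 12 largest, which ran from 17.9-fold for Dppa4 upwards. Cultures 2 and 3 differed by less than 2-fold in each of these 12 genes. Of those named here, all but Ifitm1 had a mean under 50 scaled reads in cultures 2 and 3. They therefore passed the filter through culture 1 alone.

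In the opposite direction, Tnfsf18, a ligand of the TNF family, had 5.16, 130 and 152 scaled reads. Aldh1a1, a retinaldehyde dehydrogenase, had 13.4, 298 and 309, and its relative Aldh1a7 had 25.1, 190 and 207. The calcium channel genes Cacna1c (35.9, 552 and 584 scaled reads) and Cacna1a (152, 1464 and 1300) were both low in culture 1. Sorbs2, an adaptor of the actin cytoskeleton, had 678, 7913 and 8352 scaled reads. Ogn, Abca4, Adra1b, Pkhd1l1, Col12a1 and Ptpn13 were the others. Reads of near copies such as Aldh1a1 and Aldh1a7, or Ly6a and Ly6c1, could be split between them in the authors' counting, so these values are uncertain. At the level for on, 15 protein-coding genes were on in culture 1 and off in cultures 2 and 3, among them Ednra, Csf2 and Noxa1, and 14 were the reverse, among them Cyp4b1, Ostn and Fibin.

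**Figure D4:**
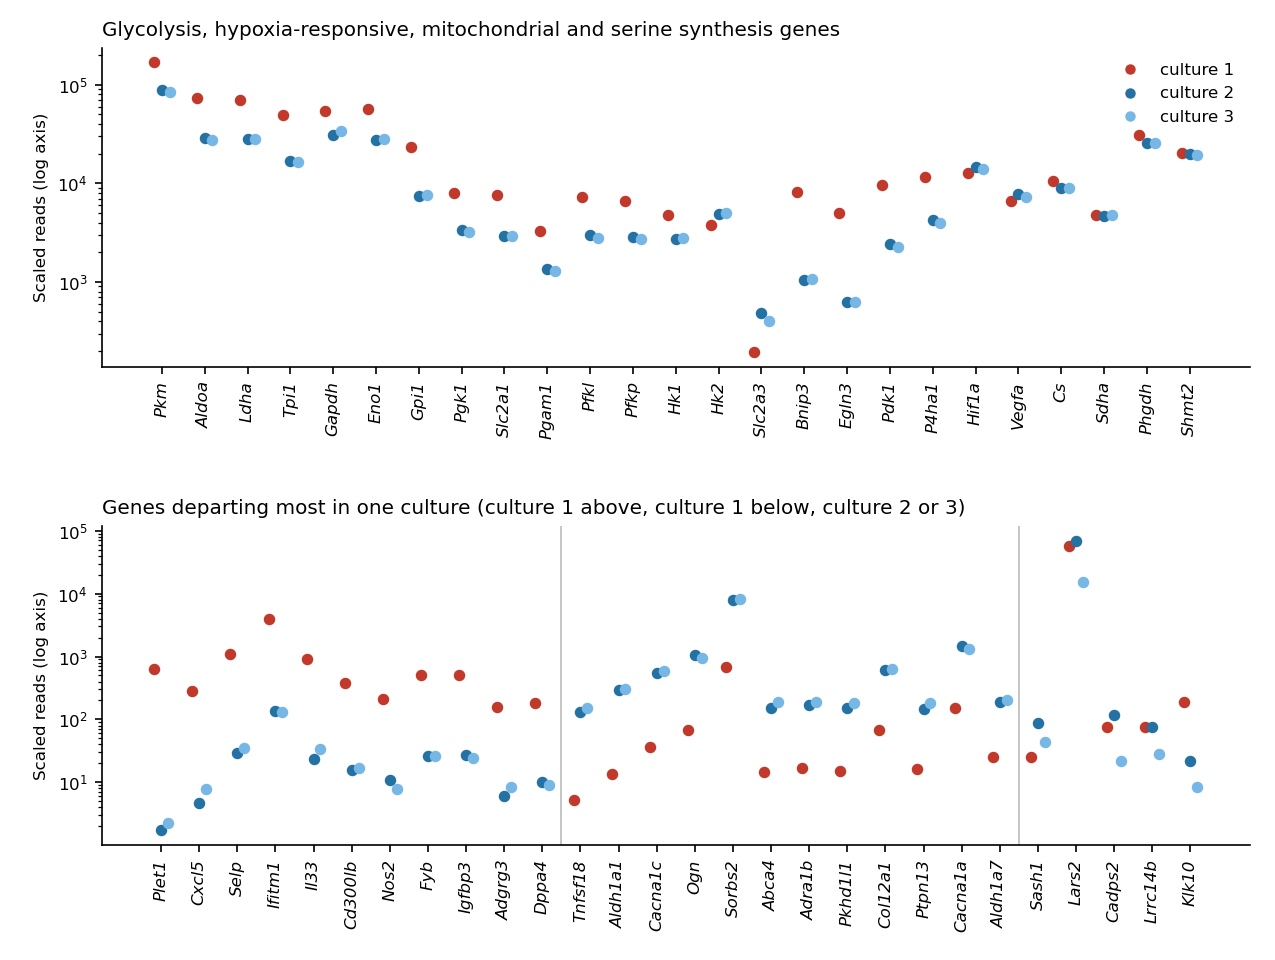
Scaled reads per culture on a log axis, with 1 point per culture. The upper panel gives glycolytic, hypoxia-responsive, mitochondrial and serine synthesis genes, and the lower panel gives the genes that departed most in culture 1 (11 of the 12 above, and 12 below) and the named genes called in cultures 2 or 3. Cultures 2 and 3 overlap for nearly all genes, with Lars2, Cadps2, Lrrc14b and Klk10 lower in culture 3.

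Among the lists with at least 5 members passing the filter, glycolysis had the largest share above in culture 1. Of 21 members that passed the filter 9 were above and 1 below, against 5.03% above and 4.61% below over all tested genes. Their median difference was 0.78 log2 units over that of all tested genes. Tpi1 (triosephosphate isomerase) had 49117, 16944 and 16288 scaled reads, Aldoa (aldolase) 72972, 28493 and 27324, and Ldha (lactate dehydrogenase) 69217, 27876 and 27905. Gpi1, Pgk1, Pgam1, Pfkl, Pfkp and the glucose transporter gene Slc2a1 were the other members above, Pfkp not under every scaling. The transporter gene Slc2a3 was below with 194, 481 and 400 scaled reads, and Hk2, which phosphorylates glucose, had 3806, 4898 and 5040. The exons of the 21 genes had a median of 4.43 kb, a length at which all genes had a median difference of 0.15. Several of the 9 genes above had shorter exons, and the bins of shorter genes had medians of 0.26 and 0.37. The part of exon length in the difference of this list was not tested.

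Hypoxia-responsive genes gave a similar picture for some members only. Of 13 that passed the filter 5 were above and 0 below, against 5.03% above and 4.61% below over all tested genes. Their median was 0.47 log2 units over that of all tested genes. Bnip3, a mitophagy receptor, had 8089, 1052 and 1084 scaled reads and Egln3, a prolyl hydroxylase that acts on Hif1a, 5038, 633 and 626. Pdk1, which holds pyruvate back from the mitochondrion, had 9535, 2418 and 2243, P4ha1, a collagen prolyl hydroxylase subunit, 11558, 4208 and 3974, and Slc2a1 7660, 2917 and 2892. Vegfa (6629, 7708 and 7323 scaled reads), Ndrg1 (6697, 5861 and 5783) and Ddit4 (3379, 3024 and 2867) differed little, as did Hif1a itself with 12874, 14693 and 14067. The label gives 21% oxygen for every culture, and whether oxygen at the cells differed was not tested.

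Promoters of 3 of the genes above are shown because Hif1a and Arnt bind DNA at short core motifs, ACGTG among them. The related core GCGTG was neither marked nor counted, so a window without a match may hold it. The sequences are those of RefSeq on GRCm38.p6, from 250 bases before to 50 bases after the annotated start, 5′ to 3′ on the strand of the gene, with matches of ACGTG or its reverse complement CACGT in capitals. Bnip3 lies at chr7:138909457-138909756 (minus strand), Egln3 at chr12:54203825-54204124 (minus strand) and P4ha1 at chr10:59323046-59323345 (plus strand).
Bnip3: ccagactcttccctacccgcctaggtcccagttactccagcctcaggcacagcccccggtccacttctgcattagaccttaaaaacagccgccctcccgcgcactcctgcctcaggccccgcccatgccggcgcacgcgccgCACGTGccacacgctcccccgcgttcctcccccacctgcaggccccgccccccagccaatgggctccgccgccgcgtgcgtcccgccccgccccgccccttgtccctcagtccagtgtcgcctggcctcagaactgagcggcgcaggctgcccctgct
Egln3: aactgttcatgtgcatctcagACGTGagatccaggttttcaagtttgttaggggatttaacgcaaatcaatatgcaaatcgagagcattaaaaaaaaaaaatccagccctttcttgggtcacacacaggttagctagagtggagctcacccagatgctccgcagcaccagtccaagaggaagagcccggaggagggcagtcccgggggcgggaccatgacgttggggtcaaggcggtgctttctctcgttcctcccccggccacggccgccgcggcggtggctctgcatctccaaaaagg
P4ha1: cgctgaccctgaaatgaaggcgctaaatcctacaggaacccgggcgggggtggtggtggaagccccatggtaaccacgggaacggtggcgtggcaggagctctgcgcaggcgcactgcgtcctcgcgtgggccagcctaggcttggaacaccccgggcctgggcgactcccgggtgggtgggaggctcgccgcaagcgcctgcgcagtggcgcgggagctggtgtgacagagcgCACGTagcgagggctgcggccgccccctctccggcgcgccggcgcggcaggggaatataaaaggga
The Bnip3 promoter holds 2 matches, which overlap in 1 CACGTG. Of the 14 genes of the hypoxia list that have a promoter sequence, 9 held a match, against 19.7% of 27025 promoters of the same length. The list was written as genes that respond to hypoxia, so this share describes the list and not these cultures. Slc2a1 held 1 match and Pdk1 none, so 4 of the 5 genes above in culture 1 held one, as did 5 of the 9 others. The 3 promoters shown were all among those with a match. A match is only a string of letters in this window, and whether Hif1a acted on these genes was not tested.

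Several lists share members, so Slc2a1, P4ha1 and Pdk1 count in more than 1. Other metabolic lists departed less. Of 30 genes of the tricarboxylic acid cycle and pyruvate entry 2 were above (Pdk1 and Idh1) and 1 below, Pcx (pyruvate carboxylase), with 797, 2291 and 2356 scaled reads. None of 22 respiratory chain genes and none of 30 proliferation genes was called. Insig1, which restrains cholesterol synthesis, had 1896, 443 and 481 scaled reads, while Sqle of the same list was not called. Of 26 antioxidant genes Gpx8, Prdx5 and Gsta4 were above, Prdx5 not under every scaling. That made 11.5% called, near the 9.64% of all tested genes called in culture 1.

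Matrix lists moved both ways in culture 1, in which 5.03% of all tested genes were above and 4.61% below. Fibrillar collagens had 1 of 10 above (Col5a3) and 4 below (Col1a1, Col5a1, Col11a2 and Col27a1), matrix glycoproteins 9 above and 4 below of 26. Spp1, Mgp, Ecm1, Thbs2, Smoc1, Emilin2, Ccn3, Tnc and Ltbp2 were the 9 above, Ecm1 and Ltbp2 not under every scaling, and Thbs1, Ccn1, Ltbp4 and Fbln5 were below. Among collagen processing enzymes the hydroxylase genes P4ha1, P4ha2 and Plod2 were above, and the crosslinking oxidases Lox, Loxl2 and Loxl4 with P3h2 and Adamts2 were below. Plod2, a lysyl hydroxylase, had 5068, 1510 and 1468 scaled reads, and Lox 1568, 3634 and 3770. Timp3, a metalloprotease inhibitor, had 4595, 10817 and 11059 scaled reads.

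Among receptor lists, Eph receptors had 0 above and 3 below of 7 (Epha1, Ephb3 and Ephb6), and Wnt receptors had 1 above (Lgr6) and 3 below of 9 (Lgr4, Fzd4 and Fzd7). The shares over all tested genes were 5.03% above and 4.61% below. Fzd7, a Frizzled receptor, had 213, 564 and 529 scaled reads. Relative to all tested genes the medians of both lists were -0.86 and -0.96 log2 units. TGF-beta and BMP receptors had 0 above and 0 below of 10, and Notch receptors and ligands 1 above (Notch4, not under every scaling) and 1 below (Notch3) of 5. Lgr6 had a mean under 50 scaled reads in cultures 2 and 3 and so passed the filter through culture 1. Integrins had 4 above and 0 below of 17, namely Itga6, Itgb2, Itgb3 and Itga2, of which Itga2 passed the filter through culture 1. Ghr, the growth hormone receptor gene, had 6592, 2156 and 2145 scaled reads, and Il13ra1 and Il4ra, both chains of the same cytokine receptor, were above as well.

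Immediate early genes had 2 above and 5 below of 19, against 5.03% above and 4.61% below over all tested genes. Klf4, Fosl2 (933, 3155 and 3230 scaled reads), Dusp1, Atf3 and Jund were below, Egr2 (494, 108 and 101) was above, and Ier3 was above but not under every scaling. Fos and Egr1 were low and alike in all cultures. Of 20 interferon-stimulated genes 5 were above and 0 below, and 3 were above with cultures scaled to their summed raw values. Isg15 had 200, 65.5 and 75.0 scaled reads and Oas1a 175, 58.4 and 53.0, and B2m and H2-D1 were not called. Inflammatory and secreted factors had 7 above and 3 below of 29. Among them Cxcl1 had 6916, 1133 and 1115 scaled reads, Lcn2 6989, 1125 and 1066, and Csf3 405, 29.3 and 34.7. Csf3 was under 50 scaled reads in cultures 2 and 3, and so passed the filter through culture 1. Csf1 went the other way with 9370, 25450 and 24502. Ccl2 and Ccl7 were not called.

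**Figure D5:**
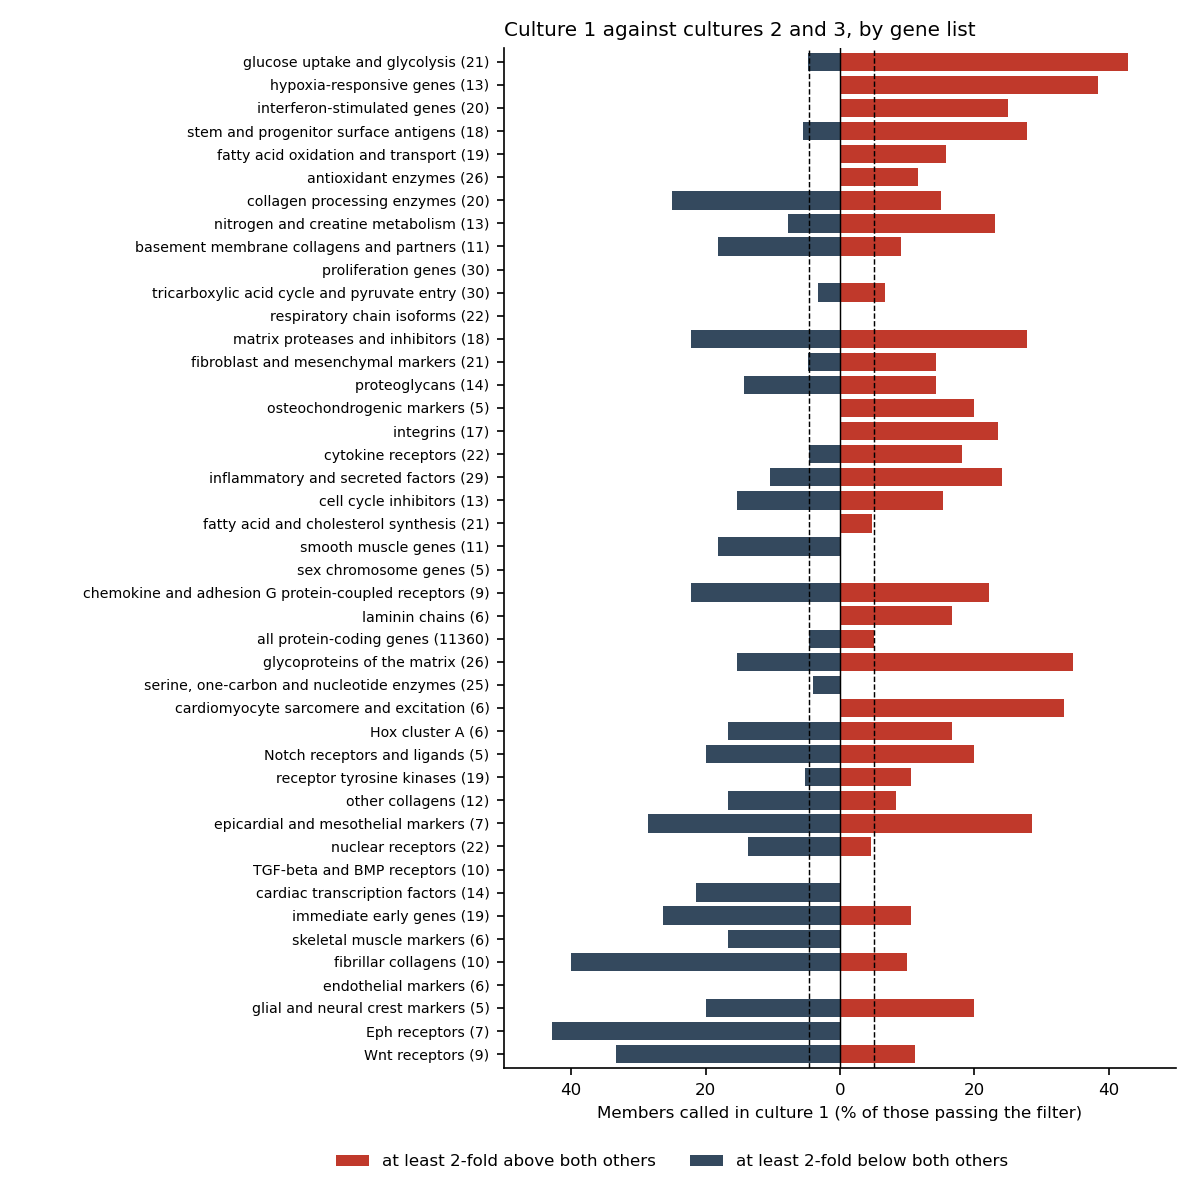
Share of the list members passing the filter that were called in culture 1, in %, to the right those at least 2-fold above both other cultures and to the left those at least 2-fold below. Lists with at least 5 such members are ordered by their median difference, and the dashed lines mark the shares over all tested genes, 5.03% above and 4.61% below. Glycolysis and hypoxia-responsive genes lie at the top with 9 of 21 and 5 of 13 above, and Eph and Wnt receptors at the bottom.

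Among lineage lists, stem and progenitor antigens had 5 above and 1 below of 18 in culture 1, where 5.03% of all tested genes were above and 4.61% below. Of the 5, Itga6 and Ly6e were above under every scaling, Alcam and Nes were not, and Tert (112, 38.5 and 46.4 scaled reads) passed the filter through culture 1. The cardiac transcription factors had 0 above and 3 below of 14 (Srf, Zfpm1 and Foxc1). Foxc1, a forkhead factor, had 252, 982 and 924 scaled reads. Mesenchymal markers had 3 above (S100a4, Pdgfra and Dcn) and 1 below (Col1a1) of 21, S100a4 not under every scaling and Dcn passing the filter through culture 1. The keratin genes Krt8 (452, 70.5 and 55.7 scaled reads) and Krt19 (202, 26.1 and 20.9) were above, Krt19 again passing the filter through culture 1. Leukocyte markers that passed the filter were Cd14, Cd68 and Mrc1, of which Cd14 and Mrc1 were above and neither under every scaling, and Ptprc, Spi1, C1qa and Lyz2 were off in culture 1 too. What part another cell type had in the departure of culture 1 was not tested.

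Cultures 2 and 3 each departed from the others in few genes. Sash1 was above in culture 2 with 25.0, 88.3 and 43.5 scaled reads. It was under 50 scaled reads in cultures 1 and 3, and so passed the filter through culture 2. Lars2, mitochondrial leucyl-tRNA synthetase, was the one abundant gene among them, with 56768, 69638 and 15260 scaled reads, culture 3 lying 3.72-fold below culture 1. Whether all of these reads came from the Lars2 messenger RNA was not tested, so its level is uncertain. Cadps2 had 74.8, 116 and 21.9 scaled reads, Lrrc14b 75.9, 76.7 and 28.7, and Klk10 191, 21.4 and 8.47. The gene above in culture 3 is a predicted one without a name.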

How the data were processed

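The labels place 6 libraries in the wild-type group, 2 for each of 3 cultures numbered in their titles. The authors deposited 1 table with a raw and a normalized value per gene and culture. The raw values are not whole numbers, so they were treated as signal, as deposited, and no count model was used. The normalized values are on a log2 scale per the file headers and the values themselves. DESeq and the build mm10 are named in the submitters' processing notes, while the sources used here do not state the aligner, the strand setting or how the 2 libraries were merged. Reads from a gene and its antisense partner therefore cannot be told apart. Relative scale factors were read from the normalized columns over 10052 genes with raw values over 200 in each culture. Normalized values rebuilt from raw value, factor and floor came within 0.01 log2 units for 30420 of 34174 genes (89%). Of the other 3754, 3 passed the filter.

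Of the 34174 genes 32874 matched GENCODE M21, which gave exon lengths, coordinates and gene classes. Differences were taken on log2 of scaled reads raised to the floor, for protein-coding genes whose mean reached 50 scaled reads. The calculation was tested on simulated data and run in Python 3.11.15 with numpy 2.4.6 and pandas 2.3.3. The precision of single values rests on counting error within libraries that is not recoverable from merged values. The genes named are the highest and the off members of 50 lists (1043 genes, 1 of them not analysed here), their members called in culture 1, the 20 highest genes per kb and the largest departures per culture. A few of these genes are not reported here. These lists, the rules and the choice of culture 1 were made with earlier results of these data known. Alternatives varied the on level, the gene length, the scaling, the filter, the genes, the fold and the pseudocount, and left out each culture in turn.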

Additional observations from a re-analysis of the deposited data

How the results depend on the processing

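No paired analysis was possible because only 1 group is described and no test was made. The numbers of genes on (9397 to 11361) and off (5704 to 6085) stayed within 1.5 times under every alternative run, including leaving out each culture. No alternative varied the floor below which a gene is called off. The counts of departing genes moved. For culture 1 above and below they were 349 and 890 with cultures scaled to their summed raw values, 1765 and 1262 at 1.5-fold, 139 and 44 at 4-fold, and 904 and 818 with no filter. With a filter at 10 scaled reads 788 genes were below, and at 200 scaled reads 370 were above. For culture 2 and culture 3, either way, they were 32 and 40 at a filter of 10, 0 and 2 at 200, 60 and 60 with no filter, 7 and 22 over all genes of the table, 17 and 30 at 1.5-fold, and 0 and 0 at 4-fold. Culture 2 had 0 with a median of ratios. Without a filter the median absolute log2 differences were 0.234, 0.248 and 0.0418 for cultures 1 and 2, 1 and 3, and 2 and 3. The median SD of log2 values, 0.23 over the 3 cultures, ran from 0.0450 without culture 1 to 0.282 without culture 2. Among 2578 values of single lists and genes under alternatives, 138 moved and none reversed. With 3 cultures, 2 of them nearly alike, and merged libraries, the spread between wild-type cultures in general is known poorly.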

Other observations

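The nuclear RNA Malat1 had 142700, 147940 and 151358 scaled reads in cultures 1, 2 and 3. Rn7sk, a small RNA that holds back transcription elongation, had 465592, 314466 and 342846 scaled reads, and Rpph1, the RNA of ribonuclease P, 358041, 300566 and 275232. Protein-coding genes took 86.7%, 88.4% and 88.4% of the summed scaled reads, and the 20 highest named protein-coding genes took 6.88%, 5.16% and 5.15% of the protein-coding part.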
